A study of Mus musculus with 16 samples.

Results

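The cytochrome P450 genes measured on the array are the subject here: 72 genes with a symbol made of Cyp, a family number, a subfamily letter and a gene number, found through the RefSeq accession of each probe. The steroid hormone synthesis genes Cyp11a1, Cyp17a1, Cyp19a1 and Cyp21a1 were left out by rule, which also names Cyp11b1, and 3 further P450 genes with a letter after the gene number, Cyp3a41a, Cyp4a12a and Cyp4a12b, did not match the pattern. Of the 72 genes, 58 had a probe well above background on at least 4 of the 16 arrays and were tested, among 24651 genes and unnamed targets in all. The 14 others were Cyp11b2, Cyp2a12, Cyp2b10, Cyp2c38, Cyp2c39, Cyp2c40, Cyp2c54, Cyp2d13, Cyp2d34, Cyp3a16, Cyp3a44, Cyp4a29, Cyp4a31 and Cyp8b1. A probe above background on all 16 arrays was found for 34 genes, and for 8 genes no array had one.

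RNA came from the entire uterus of mice, 4 arrays in each of 4 groups. Pups were given genistein, an estrogenic isoflavone of soy, at 50 mg/kg in corn oil (GenV and GenD) or 20 µl of corn oil alone (SalV and SalD) from postnatal day 1 to day 5. The sample labels name this control Saline and the series text names it corn oil. All 4 groups lost their adrenals and ovaries at 6 weeks, so every comparison is between animals without the main sources of corticosterone and ovarian steroids. At 8 weeks SalD and GenD were injected with dexamethasone, a synthetic glucocorticoid, at 1 mg/kg, SalV and GenV with 100 µl of saline, and tissue was taken 4 h later. The strain is not given in the sources used here. The labels do not tie arrays to animals, and a p-value here rests on how far the 4 arrays of a group differ, which may be technical. In whole tissue, fewer cells of a type and less RNA per cell cannot be told apart.

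P450 enzymes are haem proteins that insert oxygen into small fatty molecules, with electrons from Por in the endoplasmic reticulum or from ferredoxin in mitochondria. Families 1 to 3 mostly oxidise drugs, plant compounds, pollutants and steroids, and many of their members are known from the liver. Other members work on the body's own signals: family 4 and the Cyp2j genes on fatty acids and eicosanoids, family 26 on retinoic acid, Cyp2r1, Cyp27b1 and Cyp24a1 on vitamin D, and the Cyp7, Cyp27, Cyp39 and Cyp46 genes on cholesterol and its oxidised forms. By this grouping the tested genes were 31 of 41 in the xenobiotic families, 16 of 18 fatty acid genes, 5 of 6 cholesterol genes, 3 of 3 vitamin D genes, 2 of 2 retinoic acid genes, and Cyp20a1 of 2 others.

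Promoter windows of RefSeq (GRCm38.p6), 250 bases before to 50 bases after each start, were matched for 47 of the 58 tested genes (52 windows). The windows were searched on both strands for the core GCGTG bound by the aryl hydrocarbon receptor, for the full glucocorticoid response element and its single arm AGAACA, which lies within it, and for the retinoic acid receptor's spaced direct repeat. GCGTG was found in 13 of the 52 windows, 25%, against 32.4% of all 32851 windows. AGAACA was found in 12 windows, 23.1%, against 19% of all. Neither of the longer elements was found in a P450 window, and each was present in 0.00913% of all windows. Among genes whose transcripts changed, Cyp1b1 and Cyp1a1 held GCGTG before the start, and Cyp2b19, Cyp3a25, Cyp2d10 and Cyp2b23 held AGAACA there, the last pair being genes that differed between GenD and SalD. The first 4 are shown, 5′ to 3′ on the gene's strand and for the 250 bases before the start, with the match in capitals. In Cyp1b1 the match is on the other strand and reads CACGC. They lie at chr17:79715062-79715311 (minus strand), chr9:57697363-57697612 (plus), chr7:26756892-26757141 (plus) and chr5:146009619-146009868 (minus).
Cyp1b1: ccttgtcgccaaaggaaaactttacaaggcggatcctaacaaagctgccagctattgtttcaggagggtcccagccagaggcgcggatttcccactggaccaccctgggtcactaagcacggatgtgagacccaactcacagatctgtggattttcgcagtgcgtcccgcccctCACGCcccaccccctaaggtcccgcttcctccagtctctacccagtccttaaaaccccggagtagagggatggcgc
Cyp1a1: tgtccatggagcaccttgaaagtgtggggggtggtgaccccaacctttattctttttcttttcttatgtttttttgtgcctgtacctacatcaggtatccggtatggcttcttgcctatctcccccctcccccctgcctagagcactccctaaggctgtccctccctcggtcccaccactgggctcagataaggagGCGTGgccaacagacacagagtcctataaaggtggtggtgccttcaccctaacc
Cyp2b19: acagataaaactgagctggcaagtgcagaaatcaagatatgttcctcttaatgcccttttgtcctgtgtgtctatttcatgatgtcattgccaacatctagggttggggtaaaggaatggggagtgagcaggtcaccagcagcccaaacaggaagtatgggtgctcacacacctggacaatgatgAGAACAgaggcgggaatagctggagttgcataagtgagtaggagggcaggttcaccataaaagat
Cyp3a25: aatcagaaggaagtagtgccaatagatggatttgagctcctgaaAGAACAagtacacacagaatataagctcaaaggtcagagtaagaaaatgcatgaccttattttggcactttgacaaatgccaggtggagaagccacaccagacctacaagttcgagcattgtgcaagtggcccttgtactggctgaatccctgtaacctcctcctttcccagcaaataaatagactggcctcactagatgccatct
The match begins 76 bases before the start in Cyp1b1, 54 in Cyp1a1, 65 in Cyp2b19 and 206 in Cyp3a25. Cyp2r1 held GCGTG and Cyp2f2 held AGAACA within the 50 bases after the start. A match of this length is a description of the letters and not evidence of binding.

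Every level below is log2 of the processed spot signal minus the log2 of that array's 75th percentile, so 0 is the 75th percentile of the array, and a level is never compared between probes. Differences are on the same log2 scale. The 75th percentile ranged from 1987 to 2719 intensity units on the SalD arrays and from 948 to 2029 on the other 12. Called means an adjusted p below 0.05 by limma's moderated test over all 24651 features, Benjamini-Hochberg adjusted, two-sided. Where no array of a group was well above background, the fold is given as a lower bound, taken against the higher, per array, of the probe's own signal and the lowest signal among probes well above background. Uterine epithelial, stromal, muscle and endothelial markers were measured. Of 12 hepatocyte markers 9 were measured, with Ahsg, Hpx and Tat above background on 16 arrays, Fgg on 15, Apob on 13, Apoh on 10, Apoa2 on 8, Ttr on 7 and Apoa1 on 5, while Alb was above it on 3 arrays and Fgb and Cps1 on 1 each.

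The first question was what dexamethasone did to these genes in mice without genistein. Cyp1b1, Cyp1a1, Cyp2f2, Cyp2e1, Cyp2a5, Cyp2r1 and Cyp4f15 rose, and Cyp2b19, Cyp2c37, Cyp2c66, Cyp27b1, Cyp4f13 and Cyp4f18 fell. That is 13 of 58 genes called, 22.4%, against 23% of all features. Groups did not overlap for 13 genes, 22.4%, against 28.3% of features. In the higher direction 7 were called, where 8.45% of all features were, and in the lower direction 6, where 14.6% were. The median difference of the 58 genes was -0.18 and that of all features -0.16, which lie close together. By role the calls were 5 higher and 3 lower in the xenobiotic families, 1 and 2 among the fatty acid genes, 1 and 1 among the vitamin D genes, and none of 5 cholesterol and 2 retinoic acid genes. The map of all 58 genes by array shows the rises of Cyp1b1, Cyp1a1, Cyp2e1, Cyp2f2 and Cyp2a5 in SalD as red. Of other cell markers in SalD against SalV, 3 of 10 for smooth muscle, 5 of 11 for endothelium and 3 of 9 for ovary and oviduct fell. Of 9 hepatocyte markers 3 rose (Tat, Apoh and Ahsg) and 1 fell (Hpx), and 2 of 6 basal squamous markers and 2 of 11 macrophage markers rose. Of 9 stroma markers 1 rose and 2 fell, of 7 adrenal markers 1 rose and 2 fell, and 1 of 11 uterine epithelial markers rose. The part of these in the P450 counts was not tested. Lower calls depended on the scaling: with quantile normalization 9 genes were called higher and 2 lower, with median scaling 8 and 1, and with no scaling 13 and 0.

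**Figure D1:**
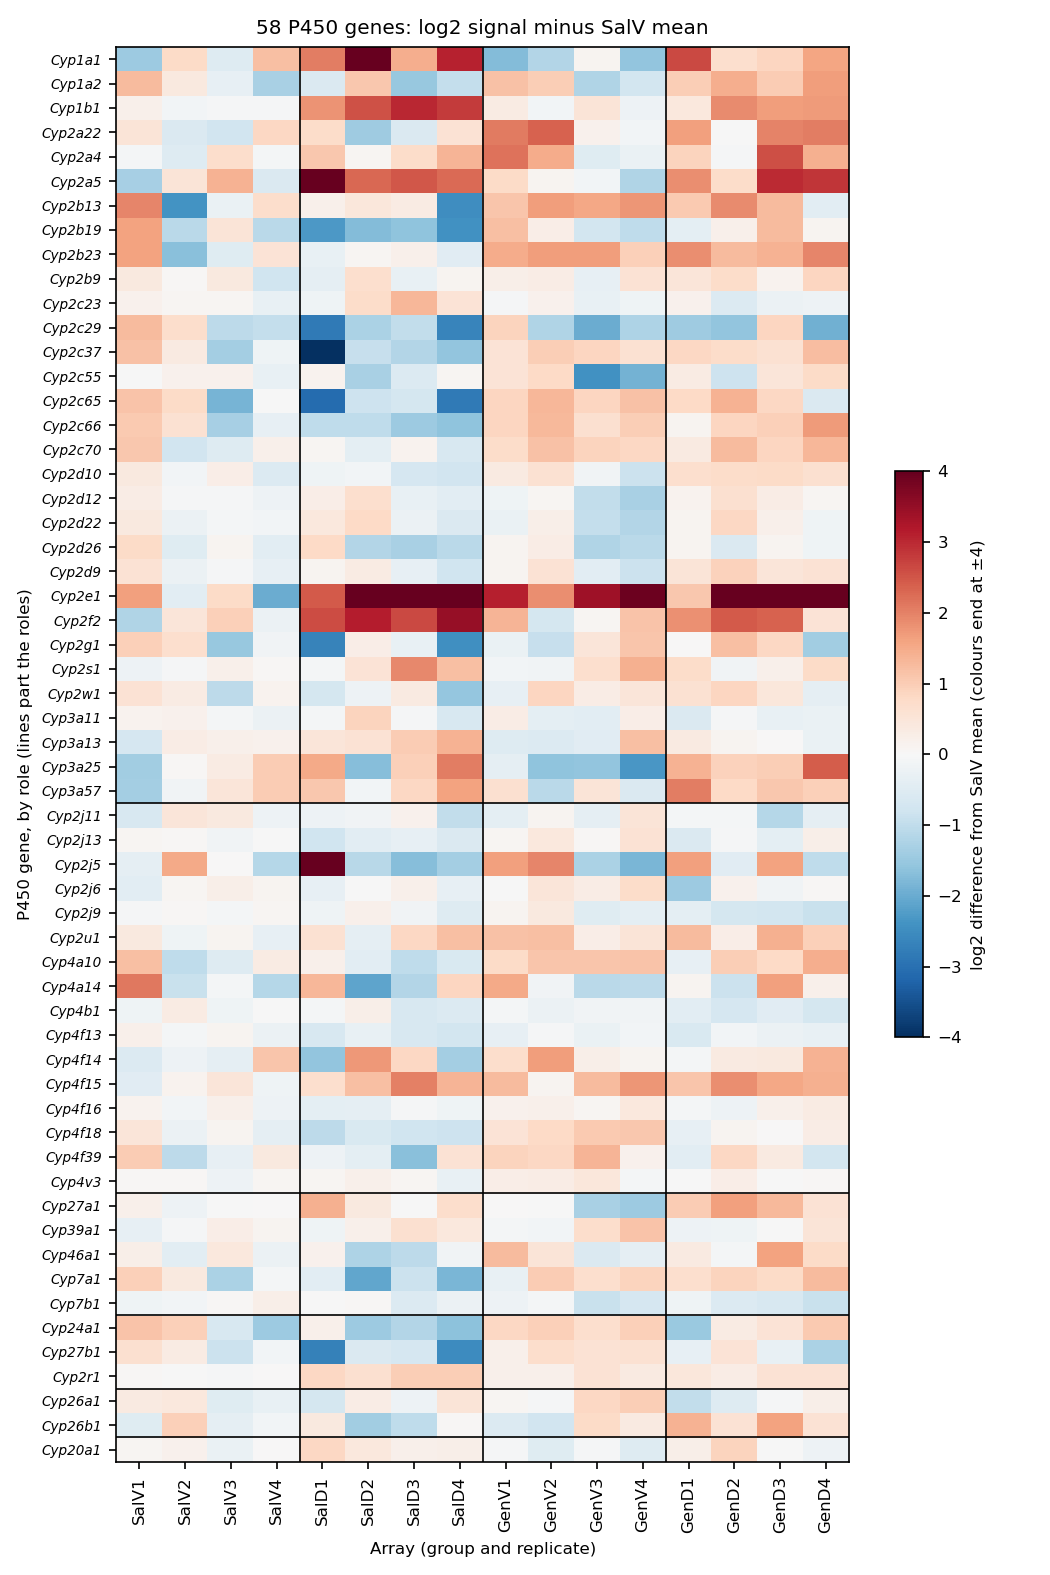
Each row is 1 of 58 P450 genes, in blocks by role, and each column 1 array. Colour is the log2 signal minus the mean of the 4 SalV arrays, red higher and blue lower, with 10 of 928 values beyond the colour range of 4. Cyp1b1, Cyp1a1, Cyp2e1, Cyp2f2 and Cyp2a5 are red in SalD, and Cyp2b19 and Cyp2c66 are blue there.

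Cyp1b1 turns estradiol into catechol estrogens and oxidises aromatic pollutants outside the liver. Its levels were -2.10, -2.40, -2.34 and -2.33 on the SalV arrays, -0.48, 0.25, 0.74 and 0.51 on SalD, -1.96, -2.39, -1.78 and -2.51 on GenV, and -1.88, -0.41, -0.61 and -0.59 on GenD. The vehicle groups lay together, SalD lay wholly above SalV, and in GenD 3 arrays stood above all GenV arrays while GenD array 1 lay among them. Dexamethasone raised it by 2.55 (SE 0.32, 5.84-fold, adjusted p = 0.000221, limma) without genistein and by 1.29 (SE 0.32, 2.44-fold, adjusted p = 0.0293) after it. Within slides, the glass carriers that hold several arrays, each comparison rests on 1 or 2 arrays a group, and the difference without genistein was 2.48, 1.93 and 3.07. The call without genistein held in all 30 alternatives tried, with the difference between 2.04 and 3.20. The call after genistein ended in 10 of 30, among them the slide block (1.43, adjusted p = 0.0555) and the omission of GenV array 1, 2 or 4 or GenD array 2, 3 or 4 (adjusted p up to 0.0882). The difference between both responses was -1.26 (SE 0.45, adjusted p = 0.232), which did not pass the test.

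Cyp1a1, the classical target gene of the aryl hydrocarbon receptor, was a dim probe, above background on 1 SalV, 4 SalD, 0 GenV and 3 GenD arrays. SalV read -9.15, -6.94, -8.24 and -6.51, and SalD -5.67, -2.87, -6.26 and -4.64, with no overlap and SalD array 2 highest. Its difference was 2.85 (SE 0.74, adjusted p = 0.0155, limma), and 5.396, 1.28 and 0.25 within slides. After genistein, GenD read -5.08, -7.04, -6.86 and -6.14 against -9.46, -8.88, -7.61 and -9.28 in GenV. That difference of 2.52 (SE 0.74, at least 2.29-fold, means -6.28 and -8.81) had an adjusted p of 0.0671. The sign in SalD against SalV turned with normexp background correction (-0.31, adjusted p = 0.719), and the call ended without SalV array 1 (adjusted p = 0.0565) and with slide as a block (adjusted p = 0.0726). Of the same receptor's other genes, Ahrr fell by 1.11 (adjusted p = 0.00986, limma) and Tiparp rose by 0.91 (adjusted p = 0.0151) in SalD, and Ahr had differences of -0.40 (adjusted p = 0.0817) and -0.53 (adjusted p = 0.0689) without and after genistein.

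**Figure D2:**
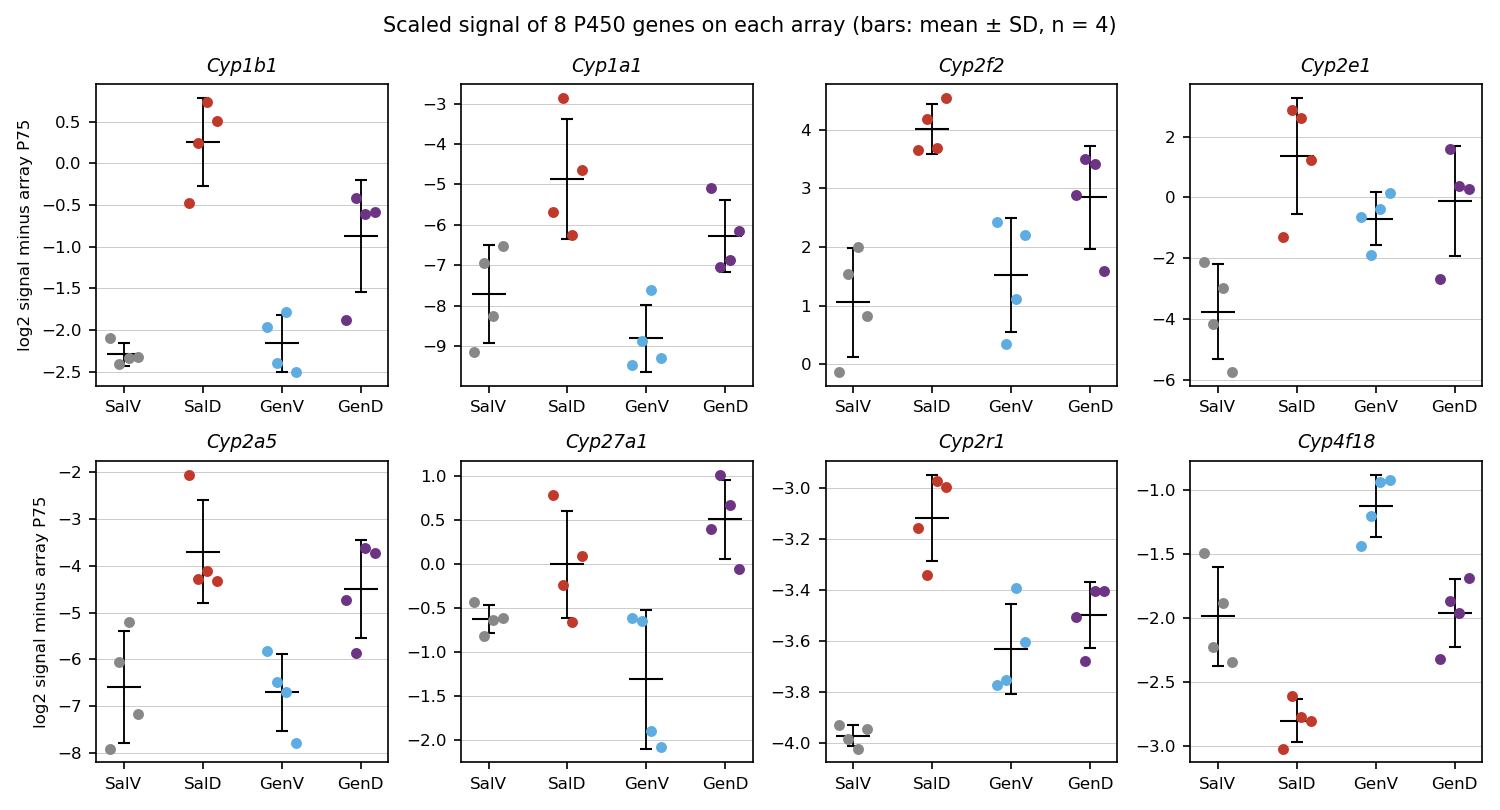
Log2 signal minus the array's 75th percentile for 8 P450 genes, 1 panel each with its own axis. Points are arrays, the horizontal mark is the group mean and bars are the SD (n = 4). SalD lies above SalV without overlap for Cyp1b1, Cyp1a1, Cyp2f2, Cyp2e1, Cyp2a5 and Cyp2r1, and below it for Cyp4f18.

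Cyp2f2 is an enzyme known from lung club cells, where it activates naphthalene. It read -0.14, 1.54, 2.00 and 0.81 in SalV, 3.66, 4.19, 3.69 and 4.54 in SalD, 2.43, 0.35, 1.12 and 2.21 in GenV, and 2.88, 3.51, 3.41 and 1.59 in GenD. All SalD arrays lay above every other array, and GenD overlapped GenV through GenD array 4. Without genistein the rise was 2.97 (SE 0.55, 7.81-fold, adjusted p = 0.0027, limma), held in all 30 alternatives, and was 4.51, 2.11 and 2.87 within slides. After genistein the difference was 1.32 (SE 0.55, adjusted p = 0.212), and the difference between both responses was -1.64 (SE 0.78, adjusted p = 0.326).

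Cyp2e1 oxidises ethanol and small solvents and is known from liver and fat. Its levels were -2.13, -4.18, -2.98 and -5.75 in SalV, -1.30, 2.87, 2.61 and 1.25 in SalD, -0.65, -1.90, -0.37 and 0.15 in GenV, and -2.67, 1.59, 0.39 and 0.28 in GenD. SalV lay below SalD and below GenV without overlap, and in both dexamethasone groups array 1 was the lowest. The rise without genistein was 5.11 (SE 1.04, 34.6-fold, adjusted p = 0.00447, limma), with 4.19, 2.87 and 8.36 within slides. After genistein the difference was 0.59 (SE 1.04, adjusted p = 0.854), and the difference between responses was -4.52 (SE 1.47, adjusted p = 0.213).

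Markers of fat cells were read beside Cyp2e1. Of 21 measured adipocyte markers, 10 were called higher, 0 lower and 11 not called in SalD against SalV. That is 47.6%, where 23% of all features were called and 8.45% were called higher. In GenD against GenV 1 was called, 4.76%, against 5.29% of all features. The median deviation of the 21 from their own 16-array means was -0.98, 1.79, 1.65 and 0.54 on the SalD arrays and -1.10, 0.40, 0.52 and 0.52 on GenD, against -1.0 to -0.39 in SalV and -0.56 to 0.48 in GenV. SalD array 1 and GenD array 1, the lowest of their groups for Cyp2e1, were also the lowest of their groups for the markers. Within SalV the order differed: array 4 was lowest for Cyp2e1 (-5.75) and array 3 for the markers. The markers on SalD array 1 lay within the SalV range, while its Cyp2e1 level (-1.30) lay above every SalV array. Without SalD arrays 2 and 3 together the Cyp2e1 rise was 3.73 with an adjusted p of 0.0543. The part of fat cells in the Cyp2e1 result was not tested. Nor was it for Cyp2f2, which was lowest of the SalD arrays on array 1, at 3.66 against 3.69 to 4.54 on the others. In GenD the lowest Cyp2f2 level was on array 4, at 1.59, with 2.88 on array 1.

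**Figure D3:**
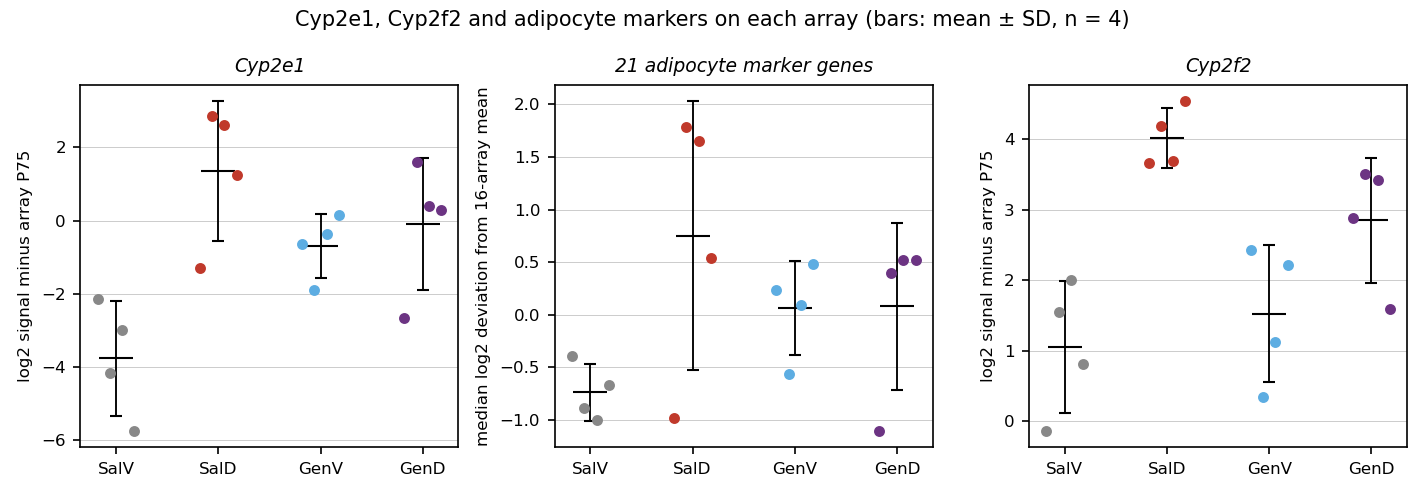
Left and right panels give the log2 signal minus the array's 75th percentile of Cyp2e1 and Cyp2f2, and the middle panel gives the median deviation of 21 adipocyte markers from their 16-array means. Points are arrays, marks and bars are mean and SD (n = 4). The lowest SalD and GenD points for Cyp2e1 and for the markers are array 1 of each group. Cyp2f2 is lowest on array 1 in SalD, at 3.66 with array 3 at 3.69, and on array 4 in GenD, at 1.59.

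Cyp2a5 oxidises coumarin and nicotine. It read -7.91, -6.07, -5.20 and -7.17 in SalV and -2.05, -4.29, -4.11 and -4.32 in SalD, so the groups did not overlap and SalD array 1 stood above the rest. The rise was 2.89 (SE 0.69, 7.43-fold, adjusted p = 0.00989, limma). After genistein GenV read -5.82, -6.49, -6.71 and -7.80 and GenD -4.73, -5.87, -3.62 and -3.73, an overlap by GenD array 2, with a difference of 2.22 (SE 0.69, adjusted p = 0.0829). With normexp correction the SalD difference was 0.46 (adjusted p = 0.549). Cyp2a4, a near-identical copy, had 3 kept probes. It gave 0.80 (adjusted p = 0.357 over all kept probes, limma) by its brightest probe. The dimmer ones gave 3.14 (adjusted p = 0.00699) and 2.75 (adjusted p = 0.0639), and the probes may not separate the copies.

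Of the 3 vitamin D genes, 1 was called higher and 1 lower in SalD against SalV. Cyp2r1, which carries out the first hydroxylation of vitamin D, read -3.93, -3.98, -4.02 and -3.95 in SalV, -3.16, -3.34, -2.98 and -3.0 in SalD, -3.77, -3.76, -3.39 and -3.60 in GenV, and -3.51, -3.68, -3.40 and -3.40 in GenD. SalV was lowest, SalD highest, and both genistein groups lay between them and overlapped. It rose by 0.85 in SalD (SE 0.12, 1.81-fold, adjusted p = 0.000703, limma), with 0.76, 0.83 and 0.97 within slides and 0.06 (adjusted p = 0.893) with normexp correction. Cyp27b1, which makes the active hormone, read -2.52, -2.84, -4.02 and -3.28 in SalV and -5.87, -3.74, -3.85 and -5.69 in SalD, and fell by 1.62 (SE 0.51, adjusted p = 0.0338). Its groups overlapped through SalV array 3, and the call ended in 9 of 30 alternatives: quantile, median and no scaling, only the arrays compared, and without SalV array 1, 2 or 4 or SalD array 1 or 4 (adjusted p up to 0.218). Within slides it differed by -2.20, -3.03 and -0.57. After genistein the dexamethasone differences of Cyp2r1 (0.13, adjusted p = 0.665, limma) and Cyp27b1 (-0.86, adjusted p = 0.422) did not pass. Cyp24a1, which breaks the hormone down, was above background on 2, 0, 3 and 1 arrays of SalV, SalD, GenV and GenD, and its differences of -1.02 and -0.73 with dexamethasone did not pass (adjusted p = 0.247 and 0.615).

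Among fatty acid genes, Cyp4f18 hydroxylates leukotrienes and is known from neutrophils. SalV read -1.49, -2.23, -1.88 and -2.35, SalD -3.02, -2.61, -2.78 and -2.80, GenV -1.44, -1.20, -0.94 and -0.93, and GenD -2.32, -1.87, -1.97 and -1.69. Each dexamethasone group lay below its own vehicle group without overlap, and GenD lay within the range of SalV. Dexamethasone lowered it by 0.82 (SE 0.20, adjusted p = 0.0114, limma) without genistein and by 0.84 (SE 0.20, adjusted p = 0.0257) after it, and the responses differed by -0.02 (SE 0.28, adjusted p = 0.975). Within slides the differences were -1.22, -0.79 and -0.43 without genistein and -0.71, -0.94 and -0.49 after it. Median scaling and no scaling (-0.17, adjusted p = 0.661, without genistein) ended both calls. The call after genistein ended in 10 of 30 alternatives, also with normexp (-0.61, adjusted p = 0.28), with slide as a block (adjusted p = 0.07), with only the arrays compared, and without GenV array 3 or 4 or GenD array 1, 2 or 3 (adjusted p up to 0.0747).

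Cyp4f13, of the same subfamily, read 0.90, 0.62, 0.79 and 0.47 in SalV and 0.06, 0.41, 0.04 and -0.03 in SalD. It fell by 0.58 (SE 0.15, adjusted p = 0.0145, limma) with no overlap, with differences of -0.71, -0.56 and -0.43 within slides. The call ended with median scaling (-0.35, adjusted p = 0.127), with normexp (-0.53, adjusted p = 0.171) and without SalV array 1 (adjusted p = 0.0521), and reversed to 0.07 with no scaling. Cyp4f15 was above background on 0 SalV and 4 SalD arrays and read -8.12, -7.54, -7.18 and -7.86 against -7.01, -6.48, -5.67 and -6.30. It was higher in SalD by at least 1.60-fold (means -7.68 and -6.37, adjusted p = 0.0163), ending without SalV array 1 (adjusted p = 0.0571) or SalD array 3 (adjusted p = 0.0501) or SalD arrays 2 and 3 together and reversing to -1.02 with normexp correction. Cyp4b1, a fatty acid and furan oxidase known from lung, read 0.69 to 1.20 in SalV, 0.21 to 1.08 in SalD, 0.63 to 0.79 in GenV and 0.17 to 0.45 in GenD, with differences of -0.26 (adjusted p = 0.324) and -0.41 (adjusted p = 0.248). The Cyp2j genes gave no call in any comparison by their brightest probes.

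Of the xenobiotic genes that fell in SalD, Cyp2b19 and Cyp2c66 were above background on 1 SalD array each and Cyp2c37 on 3. Cyp2b19, a skin keratinocyte enzyme that epoxidises arachidonic acid, read -3.69, -6.38, -4.79 and -6.39 in SalV and -7.62, -7.04, -6.93 and -7.74 in SalD, where 1 of 4 arrays was above background. It fell by 2.02 (SE 0.61, adjusted p = 0.0295, limma) without overlap, with differences of -3.70, -1.24 and -0.54 within slides. The call ended in 9 of 29 alternatives: without SalV array 1 or 3 or SalD array 1 or 4 or SalD arrays 2 and 3 together (adjusted p up to 0.0956), with slide as a block (adjusted p = 0.0687), with quantile or no scaling and with array weights. Cyp2c37 fell by 2.11 (SE 0.69, adjusted p = 0.0417) and Cyp2c66 by 1.27 (SE 0.43, adjusted p = 0.0479), both with overlap, and these calls ended in 14 and 22 of 29 alternatives. Leaving out single arrays ended them for 8 and 13 of the 16 arrays, with adjusted p up to 0.131 and 0.153. With the replicate number as a block they did not pass (adjusted p = 0.0575 and 0.0519).

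After neonatal genistein, dexamethasone changed 4 of the 58 P450 genes, 6.9%, against 5.29% of all features. Cyp1b1, Cyp27a1 and Cyp3a25 rose, where 2.49% of features were called higher, and Cyp4f18 fell, where 2.8% were called lower. Groups did not overlap for 7 P450 genes (12.1%), against 12.2% of features. The median difference was 0.13 for the P450 genes and -0.01 for all features. Of 9 stroma markers 3 rose (Hoxa11, Hoxa10 and Hand2) and 2 fell (Lum and Col3a1), or 55.6%. Of 9 hepatocyte markers 3 rose (Tat, Ahsg and Apoh). Macrophage markers gave 1 rise and 1 fall among 11, endothelium 1 fall among 11, ovary and oviduct 1 rise among 9 and adrenal 1 fall among 7. None was called for uterine epithelium, basal squamous epithelium or smooth muscle. The part of these markers in the P450 calls was not tested. Cyp1b1 and Cyp4f18 were called with dexamethasone in both neonatal groups, and 11 genes without genistein only. A call in only 1 of these comparisons does not by itself show a difference between them. The test of that difference called 0 of 58 P450 genes and 0% of all features by limma. At an unadjusted p below 0.05 there were 11 P450 genes (19%) and 15.5% of features. With 4 arrays per group, the lack of calls cannot show that the responses were alike.

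**Figure D4:**
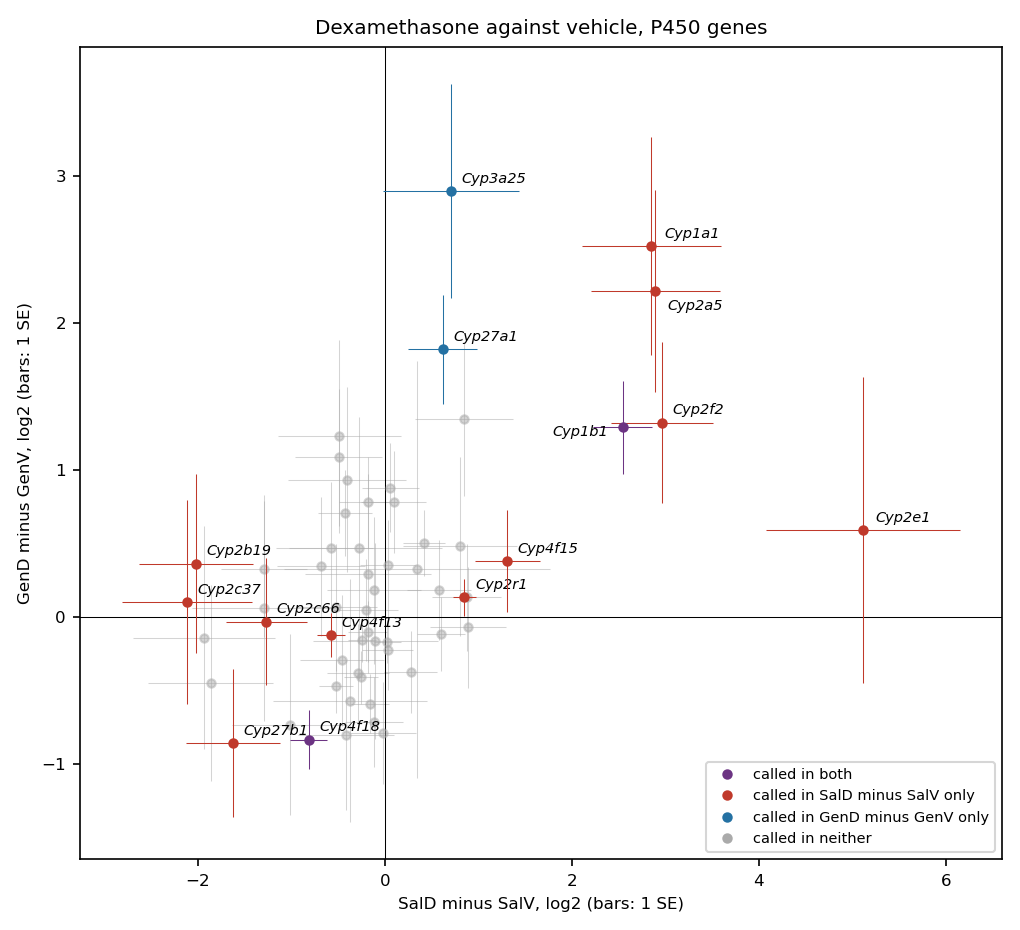
Each point is 1 of 58 P450 genes, with the log2 difference SalD minus SalV across and GenD minus GenV upward, and bars of 1 SE. Colour marks in which comparison the gene was called. Cyp1b1 (2.55 and 1.29) and Cyp4f18 (-0.82 and -0.84) were called in both, and Cyp2e1 lies far right at 5.11 and 0.59.

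Cyp27a1 is the mitochondrial hydroxylase that oxidises the cholesterol side chain. It read -0.43, -0.82, -0.63 and -0.61 in SalV, 0.78, -0.23, -0.65 and 0.09 in SalD, -0.61, -0.65, -1.90 and -2.08 in GenV, and 0.40, 1.02, 0.68 and -0.05 in GenD. GenD lay wholly above GenV, whose arrays 3 and 4 were the lowest of all 16, while SalD array 3 fell within the SalV range. The rise after genistein was 1.82 (SE 0.37, 3.53-fold, adjusted p = 0.0106, limma), with 1.14, 3.10 and 0.60 within slides, and it passed with each array left out in turn. With slide as a block it was 1.67 (adjusted p = 0.0656), and it also did not pass with no scaling or with only the arrays compared (adjusted p up to 0.105). Without genistein the difference was 0.62 (SE 0.37, adjusted p = 0.239), and the responses differed by 1.20 (SE 0.52, adjusted p = 0.298).

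Cyp3a25, of the steroid and drug hydroxylase family Cyp3a, was above background on 0 GenV and 4 GenD arrays. It read -7.69, -8.93, -8.90 and -9.67 in GenV and -5.93, -6.41, -6.36 and -4.90 in GenD, without overlap, which is at least 2.98-fold higher (means -8.80 and -5.90, adjusted p = 0.0332, limma), with 1.54, 3.26 and 4.03 within slides. SalV read -8.71, -7.27, -7.01 and -6.33 and SalD -5.82, -9.04, -6.36 and -5.28, which overlapped, with a difference of 0.71 (SE 0.73, adjusted p = 0.51). The call after genistein ended with normexp correction (1.37, adjusted p = 0.347), with slide as a block (adjusted p = 0.11), with no scaling (adjusted p = 0.102), and without 7 of the 8 GenV and GenD arrays, GenV array 1 excepted (adjusted p up to 0.0916).

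Genistein alone, GenV against SalV, called 0 of 58 P450 genes and 0.00406% of all features, which is 1 feature, by limma. At an unadjusted p below 0.05 there were 10 P450 genes (17.2%) and 13.9% of all features. Groups did not overlap for 3 P450 genes, against 4.77% of features: Cyp4f18, Cyp2e1 and Cyp2r1. Their differences were 0.86 (SE 0.20), 3.07 (SE 1.04) and 0.34 (SE 0.12), higher after genistein on 4 of 4 arrays each, with an adjusted p of 0.344 each. Cyp7b1, which hydroxylates oxysterols, read 1.04, 1.11, 1.28 and 1.46 in SalV and 1.02, 1.14, 0.34 and 0.56 in GenV, a difference of -0.46 (SE 0.21, adjusted p = 0.355).

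Under dexamethasone, genistein-exposed uteri differed from the others at 13 of 58 P450 genes, again 22.4%, against 22.9% of all features. Cyp2c37, Cyp2c65, Cyp2b19, Cyp7a1, Cyp2c66, Cyp2b23, Cyp26b1, Cyp2c70, Cyp2d10 and Cyp4f18 were higher in GenD than in SalD, where 16.5% of features were, and Cyp1b1, Cyp2c23 and Cyp2r1 were lower, where 6.39% were. The median difference was 0.42 for the P450 genes and 0.12 for all features. This comparison shares the SalD arrays with SalD against SalV, so Cyp2c37, Cyp2c66, Cyp2b19 and Cyp4f18, low in SalD, and Cyp1b1 and Cyp2r1, high in SalD, appear in both with opposite sign and are not separate evidence. Groups did not overlap for 14 P450 genes, against 28.6% of features, among them all 10 called higher and, of those called lower, Cyp2r1. With no scaling between arrays 1 gene was called higher, Cyp2c37, and 6 lower.

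**Figure D5:**
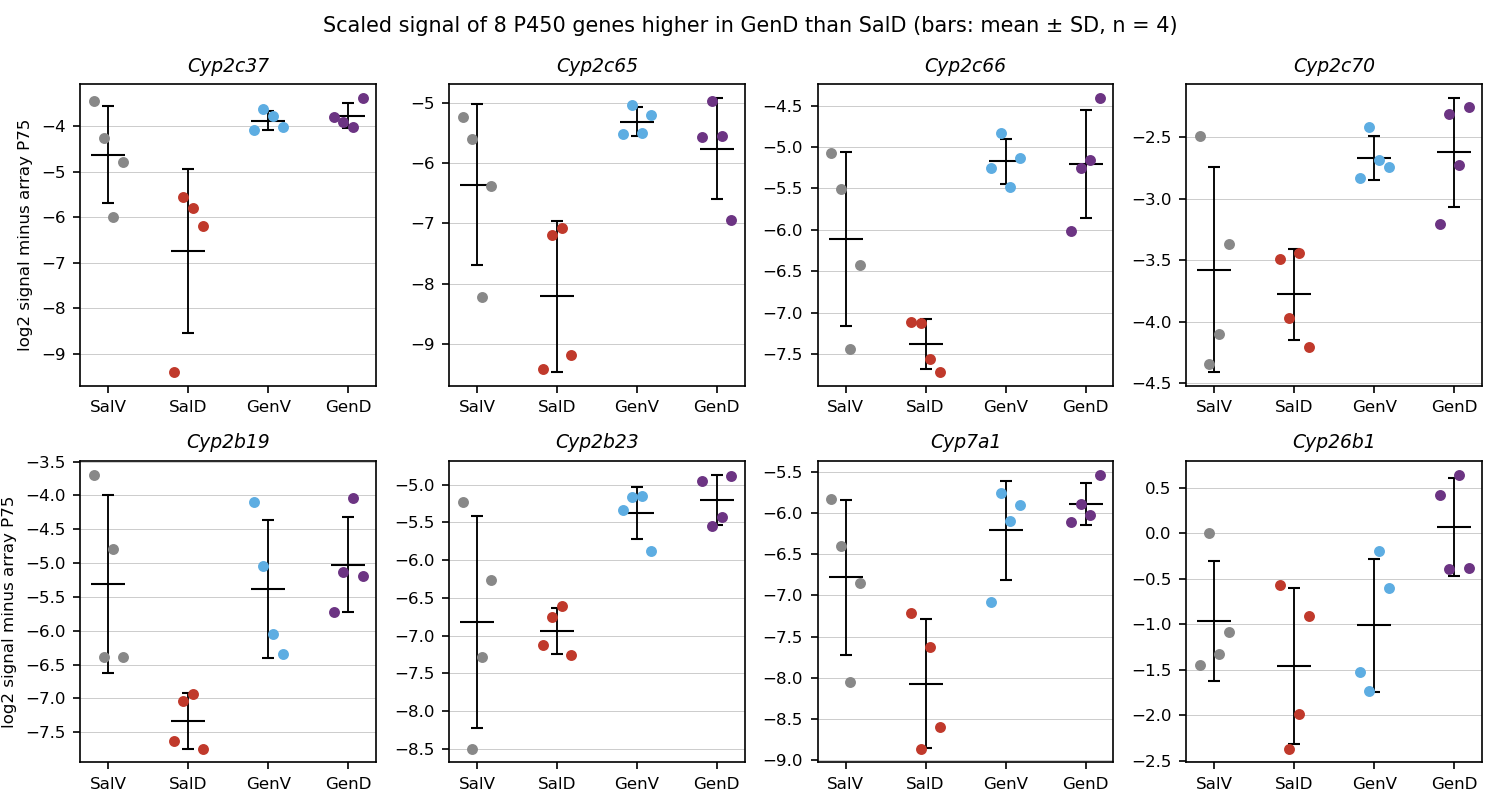
Log2 signal minus the array's 75th percentile for 8 P450 genes called higher in GenD than in SalD, 1 panel each with its own axis. Points are arrays, marks and bars are group mean and SD (n = 4). GenD lies above SalD without overlap in every panel, and for Cyp2b19 the SalD points lie below all 12 other arrays.

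Cyp2c37, a hydroxylase of arachidonic acid, read -3.44, -4.26, -6.00 and -4.79 in SalV, -9.40, -5.55, -5.80 and -6.19 in SalD, -4.09, -3.63, -3.77 and -4.01 in GenV, and -3.79, -3.90, -4.02 and -3.38 in GenD. The genistein arrays lay close together, above every SalD array, and SalD array 1 was far below the rest. GenD was higher than SalD by 2.96 (SE 0.69, 7.79-fold, adjusted p = 0.0114, limma), a call that held in 29 of 29 alternatives, with 5.50 and 2.42 within the 2 slides that hold both groups. Without single arrays the difference ranged from 2.07 to 3.36. A second, dimmer probe gave 1.28 (adjusted p = 0.0523 over all kept probes).

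Other Cyp2 genes were also higher in GenD than in SalD. Cyp2c66 read -7.12, -7.13, -7.56 and -7.72 in SalD and -6.01, -5.25, -5.16 and -4.41 in GenD, higher by 2.17 (SE 0.43, adjusted p = 0.00627, limma) and by 1.87 and 3.15 within slides. Cyp2c65, known from the gut, read -9.42, -7.18, -7.07 and -9.19 in SalD and -5.57, -4.97, -5.54 and -6.94 in GenD, a difference of 2.46 (SE 0.67, adjusted p = 0.0201), but 4.46 and 0.13 within slides. Cyp2c70, which makes muricholic acids in mouse liver, read -3.49, -3.97, -3.44 and -4.21 against -3.20, -2.31, -2.73 and -2.25, a difference of 1.16 (SE 0.35, adjusted p = 0.0299), and 1.18 and 1.19 within slides. Only 1 SalD array was above background for Cyp2c65, for Cyp2c66, for Cyp2b19 and for Cyp2b23, while Cyp2c70 was above it on all 16 arrays. Cyp2b19 differed by 2.31 (SE 0.61, adjusted p = 0.0179), with 2.50 and 1.73 within slides, and Cyp2b23 by 1.74 (SE 0.50, adjusted p = 0.0255), with 1.59 and 1.73. Cyp2d10 read -4.09, -4.03, -4.60 and -4.68 in SalD and -3.24, -3.20, -3.15 and -3.27 in GenD, a difference of 1.13 (SE 0.29, adjusted p = 0.0164) with 0.88 and 1.32 within slides, and its second probe gave 2.90 (adjusted p = 0.00385 over all kept probes). That second probe was also low in SalD against SalV (-2.35, adjusted p = 0.00492 over all kept probes, limma), so its 2 results are not separate evidence. Single arrays ended the calls of Cyp2c65 (SalD 1 or 4, GenD 2 or 3), Cyp2c70 (SalD 2 or 4, GenD 2, 3 or 4), Cyp2b23 (SalD 1 or 4, GenD 4) and Cyp2b19 (GenD 3), with adjusted p up to 0.0591, 0.0806, 0.0636 and 0.0553. With slide as a block Cyp2b19 and Cyp2d10 did not pass (adjusted p = 0.0578 and 0.0593), and with normexp correction Cyp2c66 and Cyp2b23 did not (adjusted p = 0.0504 and 0.0587). With quantile normalization Cyp2c65 and Cyp2b23 did not pass (adjusted p = 0.0567 and 0.057), and without SalD arrays 2 and 3 together Cyp2b19, Cyp2b23, Cyp2c70 and Cyp2d10 did not. Members of these subfamilies are close copies, and a probe may report more than 1 of them.

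Cyp7a1 is the rate-limiting enzyme of bile acid synthesis in liver. It was above background on 2 SalV, 0 SalD, 3 GenV and 4 GenD arrays and read -5.82, -6.40, -8.05 and -6.85 in SalV, -7.21, -8.87, -7.63 and -8.60 in SalD, -7.08, -5.75, -6.10 and -5.90 in GenV, and -6.11, -5.88, -6.01 and -5.53 in GenD. GenD and SalD did not overlap, and GenD was higher by at least 2.79-fold (means -5.88 and -8.08, adjusted p = 0.00769, limma), 1.33 and 2.10 within slides. With normexp correction the adjusted p was 0.0588. Cyp46a1, known from neurons, differed by 1.24 (SE 0.45, adjusted p = 0.0594) with overlap.

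The retinoic acid hydroxylases Cyp26a1 and Cyp26b1, which clear the signal from cells, were above background on all 16 arrays. Cyp26c1, of the same family, was matched to no probe. Cyp26b1 read -1.44, 0.00, -1.33 and -1.09 in SalV, -0.57, -2.37, -1.99 and -0.91 in SalD, -1.52, -1.73, -0.19 and -0.61 in GenV, and 0.42, -0.39, 0.64 and -0.38 in GenD. GenD stood above SalD by 1.53 (SE 0.47, adjusted p = 0.0324, limma), but by 0.18 and 1.61 within slides. The call ended in 8 of 30 alternatives: without SalD array 2 or 3 or GenD array 1 or 3 (adjusted p up to 0.0889), without SalD arrays 2 and 3 together (0.81, adjusted p = 0.308), with slide as a block (adjusted p = 0.0804), and with median or no scaling. Cyp26a1 read -0.73, -0.69, -1.59 and -1.39 in SalV, -1.80, -0.79, -1.29 and -0.60 in SalD, -1.02, -1.16, -0.28 and -0.10 in GenV, and -2.10, -1.63, -1.15 and -0.86 in GenD, overlapping throughout. Its GenD minus SalD difference was -0.31 (SE 0.35, adjusted p = 0.525).

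In the other direction, Cyp1b1 was lower in GenD than in SalD by 1.12 (SE 0.32, adjusted p = 0.0234, limma) with overlap. That call ended in 6 of 30 alternatives, among them normexp, slide as a block (-0.84, adjusted p = 0.135) and the omission of SalD array 3 or 4 (adjusted p up to 0.0693), and the values within slides were 0.07 and -1.32. Cyp2c23, a kidney arachidonic acid epoxygenase, was lower by 0.80 (SE 0.25, adjusted p = 0.0372) with overlap, and the differences within slides were -0.38 and -1.51. It was not past the test with the replicate number as a block (adjusted p = 0.0549), without SalD array 2, 3 or 4 or GenD array 2, 3 or 4 (adjusted p up to 0.108), and reversed to 0.0030 with normexp correction. Cyp2r1 was lower by 0.38 (SE 0.12, adjusted p = 0.042), lost in 16 of 30 alternatives, without 9 of the 16 arrays in turn (adjusted p up to 0.114) and reversed to 0.22 with normexp correction. For Cyp4f18, GenD was higher by 0.84 (SE 0.20, adjusted p = 0.012) and by 1.15 and 1.08 within slides, a call lost only with no scaling (0.27) among 30 alternatives.

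Some markers and the array scale also differed between SalD and GenD. Marker calls stand against 22.9% of all features called in GenD against SalD, 16.5% higher and 6.39% lower. The 75th percentile was 1987 to 2719 on SalD arrays and 1321 to 1803 on GenD arrays. Of 9 measured ovary and oviduct markers, 5 were called higher in GenD and 0 lower, and their median deviation was -0.89 to -0.50 in SalD, 0.27 to 0.61 in GenD, -0.04 to 0.57 in SalV and 0.14 to 0.62 in GenV, with Lhcgr above background on 0 arrays. Of 7 adrenal markers 3 were called higher (Nr5a1, also an ovary marker, Hsd3b1 and Scarb1) and 0 lower, with a median deviation of -0.98 to -0.28 in SalD and -0.01 to 0.52 in GenD, which did not overlap. Of 9 measured hepatocyte markers 2 were called higher (Hpx and Ahsg) and 0 lower, and of 11 endothelial markers 3 were higher (Egfl7, Cldn5 and Eng) and 0 lower. Of 11 macrophage markers C1qa and C1qb were higher and Itgam and Mrc1 lower. Of 6 measured markers of basal squamous epithelium, which is made of keratinocytes, Col17a1 and Trp63 were lower and 0 higher, with a median difference of -1.07. Of 21 adipocyte markers Pnpla2 was lower. Called shares were 55.6% for ovary and oviduct, 42.9% for adrenal, 36.4% for macrophage and 33.3% for basal squamous markers. They were 27.3% for endothelial, 22.2% for hepatocyte and 4.76% for adipocyte markers. Of 11 uterine epithelial, 9 stroma and 10 smooth muscle markers 0 were called. The part of these markers in the P450 differences was not tested.

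Genes that work with the P450 enzymes were read from lists by function. Their called shares stand against 23% of all features in SalD against SalV, 5.29% in GenD against GenV and 22.9% in GenD against SalD. Of 13 electron donor and haem supply genes, Cyb5a (0.52, adjusted p = 0.0258, limma) and Fdx1 (0.51, adjusted p = 0.0259) rose in SalD, 0 fell, and 0 were called in GenD against GenV or GenD against SalD. That is 15.4% in SalD, with a median difference of 0.23 against -0.16 over all features. The Cyb5a call ended in 7 of 30 alternatives, among them the omission of SalV array 2 or 4 or SalD array 2, 3 or 4, and the Fdx1 call in 6, among them the omission of SalV array 1 or 2 or SalD array 3 or 4 (adjusted p up to 0.133 and 0.104). Por differed by 0.42 (adjusted p = 0.0917) without genistein and 0.15 (adjusted p = 0.733) after it. Of 23 receptor and regulator genes, 3 rose and 8 fell in SalD, 0 and 2 in GenD against GenV, and 5 were higher and 3 lower in GenD than in SalD. These are 47.8%, 8.7% and 34.8% of the list, with a median difference of -0.49 in SalD. The glucocorticoid receptor gene Nr3c1 fell by 0.49 (adjusted p = 0.0156) without genistein and by 0.75 (adjusted p = 0.00351) after it, with the first lost in 3 of 30 alternatives and reversed in 1, to 0.16 with no scaling. The second was also lost in 3 of 30, with normexp, with the mean of its probes and with no scaling (adjusted p up to 0.221). Rxrg, a partner of the vitamin D and retinoic acid receptors, fell by 1.53 (adjusted p = 0.00529) and by 1.19 (adjusted p = 0.0459), the second call ending in 18 of 30 alternatives, among them the omission of GenV array 1, 2 or 4 or of any GenD array.

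Conjugation enzymes act on the products of P450 enzymes. Their list here also held the flavin monooxygenases Fmo1, Fmo2 and Fmo5 and the reductase Nqo1, which do not conjugate. Of 17 measured genes of this mixed list, 5 rose and 1 fell in SalD. In GenD against GenV 3 rose and 0 fell, and 1 was higher in GenD than in SalD. These are 35.3%, 17.6% and 5.88% of the list. Fmo1 and Fmo2 were among the rises in both dexamethasone comparisons. Gsta3, a glutathione transferase, rose by 2.63 (adjusted p = 6.03e-05, limma) without genistein and 1.89 (adjusted p = 0.00101) after it. Fmo1, a flavin monooxygenase, rose by 1.30 (adjusted p = 0.00449) and 1.17 (adjusted p = 0.019, lost in 5 of 30 alternatives, among them the omission of GenD array 2), and Gstt1 fell by 1.51 (adjusted p = 0.000742) in SalD.

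The last lists hold partners of the retinoic acid, eicosanoid and sterol genes. Of 14 measured retinoid handling genes, 2 rose and 3 fell in SalD, 1 rose and 1 fell in GenD against GenV, and 2 were higher and 0 lower in GenD than in SalD, or 35.7%, 14.3% and 14.3% of the list. Aldh1a2, which makes retinoic acid, rose by 0.68 (adjusted p = 0.0224, limma) and 0.77 (adjusted p = 0.031), and Rdh10, of the step before, fell by 0.60 (adjusted p = 0.0399) and 0.72 (adjusted p = 0.0482). The Aldh1a2 calls ended in 5 and 11 of 30 alternatives, without SalV array 1 or 2 or SalD array 1 or 4 in SalD, and without GenV array 1 or 4 or any GenD array after genistein. The Rdh10 call after genistein ended in 22 of 30, with any GenV or GenD array left out among them. Of 12 arachidonic acid and epoxide genes, 0 rose and 2 fell in SalD, 0 and 2 in GenD against GenV, and 1 was higher and 1 lower in GenD than in SalD, 16.7% each time. Alox5, which starts leukotriene synthesis, fell by 0.58 (adjusted p = 0.0376) and by 1.27 (adjusted p = 0.00112), the first lost in 14 of 30 alternatives, among them quantile, median and normexp, both blocks and the omission of SalV array 1, 2 or 3 or any SalD array, and reversed to 0.07 with no scaling. Of 21 sterol genes, 5 rose and 2 fell in SalD, 0 and 1 in GenD against GenV, and 2 were higher and 0 lower in GenD than in SalD, or 33.3%, 4.76% and 9.52% of the list. Cyp51, of cholesterol synthesis, rose by 1.02 (adjusted p = 0.00633) in SalD, lost with normexp and with the mean of its probes (adjusted p up to 0.102). Gpr183, the oxysterol receptor downstream of Cyp7b1, fell by 1.15 (adjusted p = 0.0011) without genistein and by 0.67 (adjusted p = 0.0476) after it, the second call ending in 20 of 30 alternatives, among them the omission of GenV array 1, 2 or 3 or any GenD array. No gene of these 6 lists was called in GenV against SalV or in the difference between responses.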

How the data were processed

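Whole uterus RNA (400 ng, Cy3) was hybridised to 1 one-colour Agilent array per sample, 4 per group. The deposited values are spot intensity, background-subtracted and detrended by Agilent Feature Extraction, version 12.0.0.7 per the file headers and 9.5 per the submitters' processing notes, linear and not scaled between arrays. Spot flags (0 or 1, per the file headers) marked spots well above background and outliers. The series value table held the same intensity (largest difference 0) and was not counted as an alternative. Precision is limited by the 4 arrays per group.

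Of 41174 probes, 807 with an outlier spot were dropped and 32598, well above background on at least 4 arrays, were kept. Symbols came from RefSeq accessions (28223 of 29245 probes matched). Values were log2 of the intensity minus the array's 75th percentile, and the brightest probe stood for a gene. Of the tested P450 genes, 9 had several kept probes. All 16 arrays entered 1 linear model of the 4 groups (limma 3.58.1, R 4.3.3, with the data.table package at version 1.17.8). The code was tested on simulated data. Figures used matplotlib 3.10.9 in Python 3.11.15.

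Named were called P450 genes whose groups did not overlap (at most 10 per comparison), 11 fixed genes, up to 4 called genes per pathway list, and Por, Nr3c1 and Ahr; other called P450 genes are given briefly. Members and lists were chosen with earlier results of these data known. Slide numbers came from the scanner files and were tested as a block, as was the replicate number. Normexp used the median spot signal with an offset of 50. The alternatives were other scaling, background correction, dim probe filters, probe averages, blocks, a variance trend, array weights, only the arrays compared, and each array left out.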

Additional observations from a re-analysis of the deposited data

Results flagged for a closer look

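For 27 P450 genes named in the report, the 4 arrays of each group were checked for 1 array far from the other 3. Of 108 such groups 3 stood out, and chance alone gives about 1 in 20. Cyp1b1 was at -1.88 on GenD array 1 against -0.61 to -0.41 on the other GenD arrays. Cyp2a5 was at -2.05 on SalD array 1 against -4.32 to -4.11, and Cyp2c37 was at -9.40 on SalD array 1 against -6.19 to -5.55. Both array 1 samples were also the lowest of their group in adipocyte markers.

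Cyp2r1 levels lay in opposite directions with genistein: every GenV array lay above every SalV array, and every GenD array lay below every SalD array. The first difference, 0.34, was not called (adjusted p = 0.344, limma). The second, -0.38 (adjusted p = 0.042), was lost in 16 of 30 alternatives and reversed to 0.22 with normexp correction. The difference between the dexamethasone responses was -0.72, with an unadjusted p of 0.00109 and an adjusted p of 0.167 by limma, so it did not pass the test over all features.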

How the results depend on the processing

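Of 30 alternatives, 28 were planned, and no scaling between arrays and the omission of SalD arrays 2 and 3 together were chosen after seeing the data. No P450 gene was called in GenV against SalV or in the difference between responses under any of them. Called P450 genes in SalD against SalV numbered 13, but 7 with normexp and 8 with a filter on all 16 arrays. In GenD against GenV there were 4, but 1 with normexp, 0 with slide as a fixed block, 11 with array weights, 1 with only the arrays compared and 0 with no scaling. In GenD against SalD there were 13, but 7 with the filter on all 16 arrays, 25 with array weights, 7 with no scaling and 7 without SalD arrays 2 and 3. Leaving out 1 array gave 6 to 14 (lowest without SalV array 1), 1 to 5 (lowest without GenV array 4, GenD array 2 or GenD array 3) and 7 to 14 (lowest without SalD array 4 or GenD array 3) in these comparisons, and 0 to 0 in the others. With the replicate number as a block the counts were 12, 5 and 15, and 0 in both others. Among pairs from different groups, 8 of 24 sharing a replicate number had a correlation of deviations above 0.1, against 16 of 72 with different numbers. The median correlations were 0.03 and -0.04, and 5 of 16 arrays correlated best with their own number. The labels name no pairing, so the number is not taken as one and was tried as a block only.

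Directions reversed with normexp for Cyp1a1 (-0.31) and Cyp4f15 (-1.02) in SalD against SalV, and for Cyp2c23 (0.0030) and Cyp2r1 (0.22) in GenD against SalD. With no scaling they reversed for Cyp4f13 (0.074), Alox5 (0.074) and Nr3c1 (0.16) in SalD against SalV, and for Srebf1 (-0.020) in GenD against SalD. The median difference of all features, SalD against SalV, was -0.16 as reported, 0.07 with median scaling, -0.49 with normexp and 0.49 with no scaling. Dim probes had little signal over background, and the causes of these changes were not tested.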
